A study of Mus musculus with 6 samples.

Results

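Ionotropic transmitter receptors are membrane channels that open when a neurotransmitter binds, and each is built from several subunits encoded by separate genes. The series matrix was searched for every row whose single gene symbol belongs to the GABA-A, glycine, AMPA, kainate, NMDA or nicotinic acetylcholine receptor families. This gave 52 genes of 19938 measured with a single symbol, 16 of them GABA-A, 5 glycine, 4 AMPA, 5 kainate, 6 NMDA and 16 nicotinic. Where a gene had several rows, as Gabrb2 had 3, the row with the highest mean over the 6 arrays was used. The samples were lumbar spinal cord of mouse embryos at E15.5, strain SV129 throughout, with 3 wild-type arrays and 3 arrays from mice labelled TNC -/-, lacking the matrix glycoprotein tenascin-C; no driver line or deleted part of the gene is named. Each array carried total RNA of 1 sample, called a biological replicate in the labels, and values are log2 signals. Whether embryos were pooled, and from which litters they came, is not given in the sources used here. P-values therefore measure the spread between these samples, and 3 arrays per group limit their precision.

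GABA-A and glycine receptors are chloride channels of the Cys-loop family, to which the cation-conducting nicotinic receptors also belong. In the immature cord many neurons hold high internal chloride, so GABA and glycine can depolarise them, and early network bursts rely on acetylcholine, GABA and glycine before glutamate takes over. AMPA, kainate and NMDA receptors form the ionotropic glutamate receptor family, with 4 subunits around a cation pore. Subunit choice changes with age in several families, as when the embryonic glycine receptor subunit alpha2 gives way to alpha1, or the NMDA subunit GluN2B is joined by GluN2A.

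Mean Tnc signal was 10.32 ± 0.36 (wild type) against 9.62 ± 0.15 (knockout; SD over 3 arrays each). The lowest knockout array read 9.47, so Tnc stayed above the background guide used below (6.13) in knockout too. The source of that remaining signal was not tested. Each knockout array lay below each wild-type array, with an exact two-sided permutation p of 0.1, the smallest this design allows, and an adjusted p of 1 in limma. The groups also differed in sex. Xist, which silences 1 X chromosome in females, read 11.60 or more in 4 arrays, namely all of wild type and knockout replicate 2. Knockout replicates 1 and 3 gave 5.44 and 5.38 and alone carried Y-linked signal. No wild-type array carried it, so a value shared by knockout replicates 1 and 3 alone cannot be assigned to genotype or to sex, which cannot be told apart there. Of 11 neuron markers, such as Snap25 and Tubb3, all 11 were above the background guide used below, and the list's mean level per array ran from 12.33 to 12.39 in wild type and from 12.36 to 12.42 in knockout. The mean of 5 oligodendrocyte precursor markers ran from 8.63 to 8.77 in wild type and from 8.83 to 8.92 in knockout, that of 5 endothelial markers from 8.66 to 8.86 and from 8.82 to 9.07, and that of 7 motor neuron markers from 8.24 to 8.64 and from 8.54 to 8.57. All members of these 3 lists had positive differences, none past the adjusted threshold in limma, and their part in the subunit differences was not tested. The groups stood apart for 2 oligodendrocyte precursor markers (Olig1, Olig2), 2 endothelial (Pecam1, Cdh5) and 0 motor neuron markers (5.82% of all genes). Radial glia, microglia and meninges markers were mixed, with 5 of 6, 4 of 5 and 2 of 5 higher in knockout. Aif1 (microglia, -0.19) and Lum (meninges, -0.30), both below the background guide, stood apart with knockout lower. In bulk tissue, fewer cells of a type and less RNA per cell cannot be told apart.

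A subunit was called detected when its mean over the 6 arrays lay above 6.13. This background guide is the 95th percentile of the means of 1194 genes for smell and pheromone receptors (Olfr, Vmn1r and Vmn2r). By this rule 42 of 52 subunits (80.8%) were detected, against 73.7% of all genes. All 15 glutamate receptor subunits were above the guide, as were 13 of 16 GABA-A, 4 of 5 glycine and 10 of 16 nicotinic subunits. In single arrays 40 subunits were above the guide in all 6 and 8 were below it in all 6. Gabrp, Chrna9, Chrne and Grin3b lay on both sides. The guide is a soft line, since 11 subunits had means within 0.5 log2 units of it, and with the 99th percentile of the same genes as guide the count was 33. Array rows of different genes bind with different strength, so no order of abundance among subunits is drawn from these levels.

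**Figure D1:**
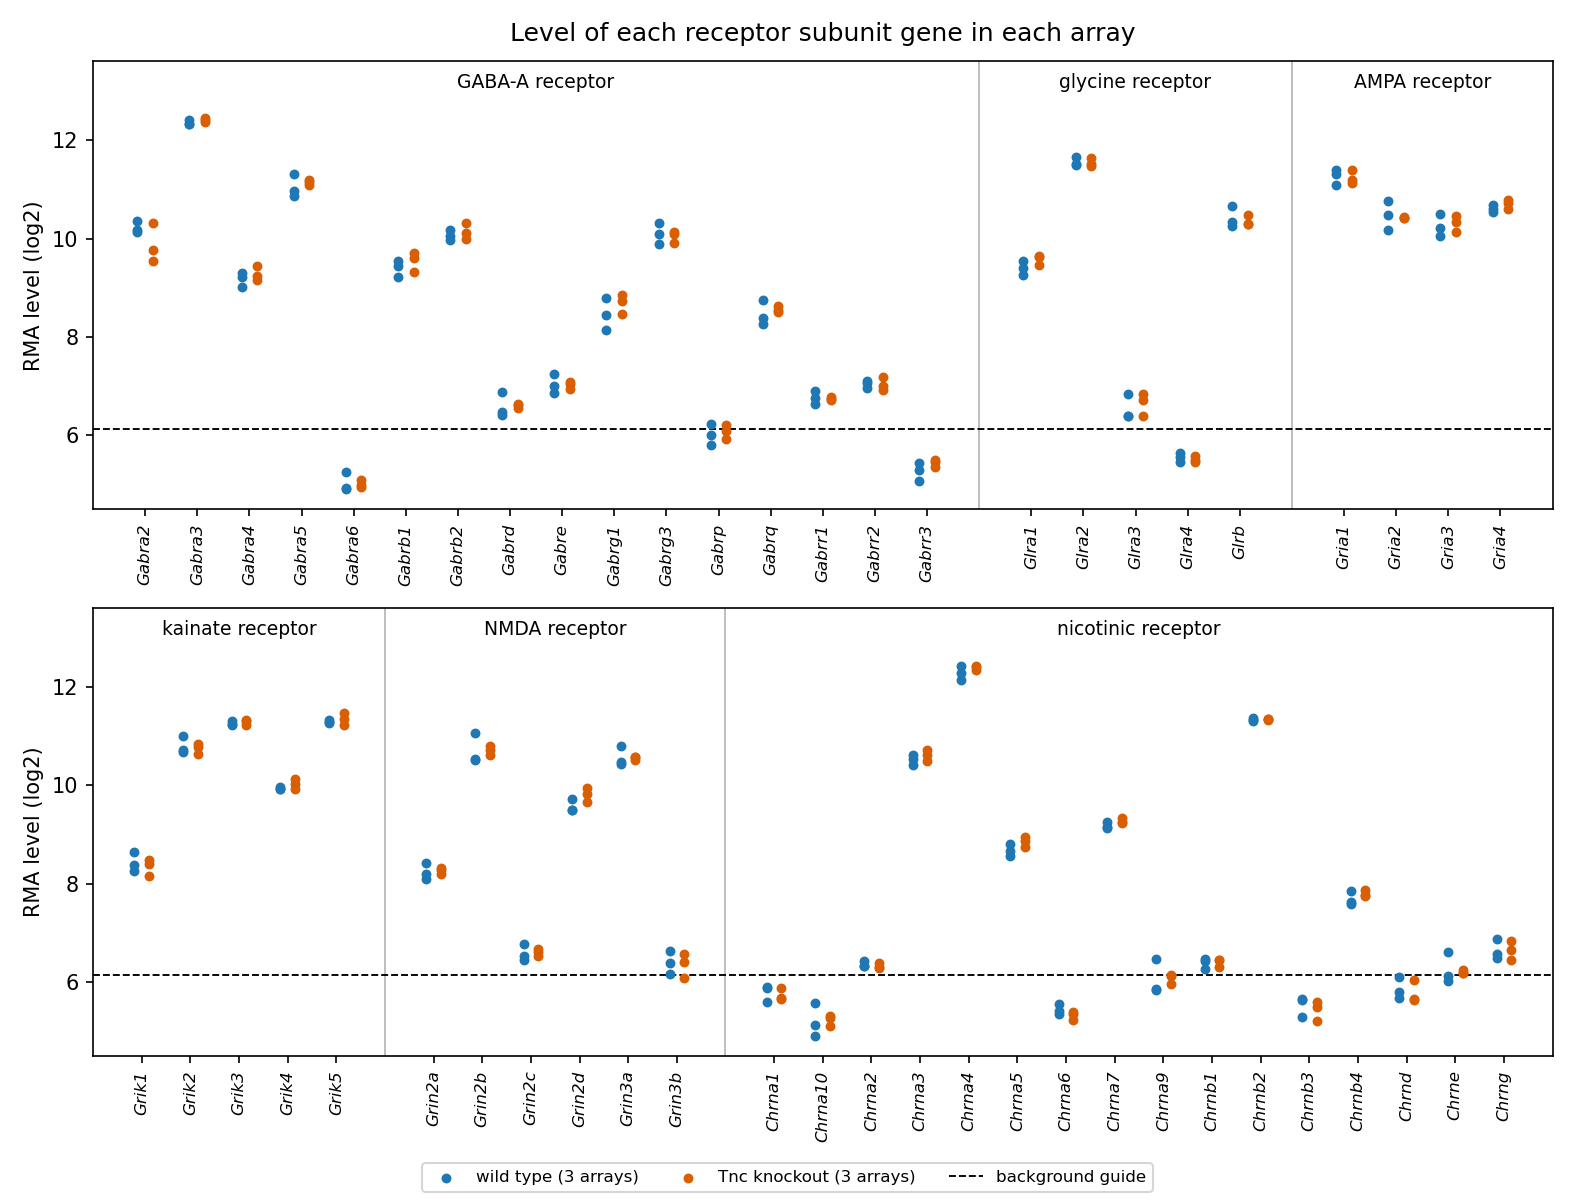
RMA level (log2) of each of the 52 subunit genes in each array, by receptor family, with wild-type arrays in blue, Tnc knockout arrays in orange and the background guide as a dashed line at 6.13. The glutamate receptor genes all have means above the line, the genes below it are GABA-A, glycine and nicotinic, and the range of the orange points overlaps that of the blue for every gene.

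No subunit passed the test between genotypes. In limma with Benjamini-Hochberg adjustment over all genes, 0 of 52 subunits reached an adjusted p of 0.05 (0.0% of all genes did), and every adjusted p among them rounded to 1. Grin2d was the 1 subunit with an unadjusted p under 0.05, which makes 1.92% of subunits beside 1.7% of all genes. For none of the 52 did the 3 knockout values lie wholly above or wholly below the 3 wild-type values, whereas 5.82% of all genes separated in this way. The median log2 difference, knockout minus wild type, was 0.02 over the subunits and -0.0069 over all genes. Of the subunits 30 were higher and 22 lower (57.7% higher, against 46.4% of all genes). The median size of the difference was 0.06 against a median within-group SD of 0.14.

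These values bound what could have been missed in the difference between the groups as sampled. They do not bound an effect of genotype alone, since the groups also differed in sex and the fit held no sex term. The 95% confidence interval of the difference lay inside -0.5 to 0.5 log2 units for 50 of the 52 subunits and for 18947 of all 19938 genes. The exceptions were Gabra2 and Gabrg1. It lay inside -0.25 to 0.25 for 9 of the 52 subunits and for 7001 of the 19938 genes, so changes of about that size were not resolved for most. Leaving out arrays 1 at a time turned the direction of 32 subunits at least once. Of the 20 that kept their sign, 17 were higher in knockout and 3 lower. This count was not made over all genes, so no common direction of the subunits is drawn from it.

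Counts of this kind moved with single arrays. The unadjusted p was under 0.05 for 4 subunits without wild-type replicate 1 (3.33% of all genes), 4 without wild-type replicate 3 (6.91% of all genes), and 0 once wild-type replicate 2 (1.28%) or knockout replicate 3 (1.48%) was omitted. It was under 0.05 for 1 subunit without knockout replicate 1 (1.22% of all genes) and for 1 without knockout replicate 2 (1.1%). The groups stood apart for 12 subunits without wild-type replicate 1 (23.1%, against 16.2% of all genes) and for 11 without wild-type replicate 3 (21.2%, against 23.5%). They stood apart for 1, 6, 3 and 6 subunits without wild-type replicate 2 and knockout replicates 1, 2 and 3, each time a lower share than the 11.6%, 12.9%, 11.0% and 13.2% of all genes.

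**Figure D2:**
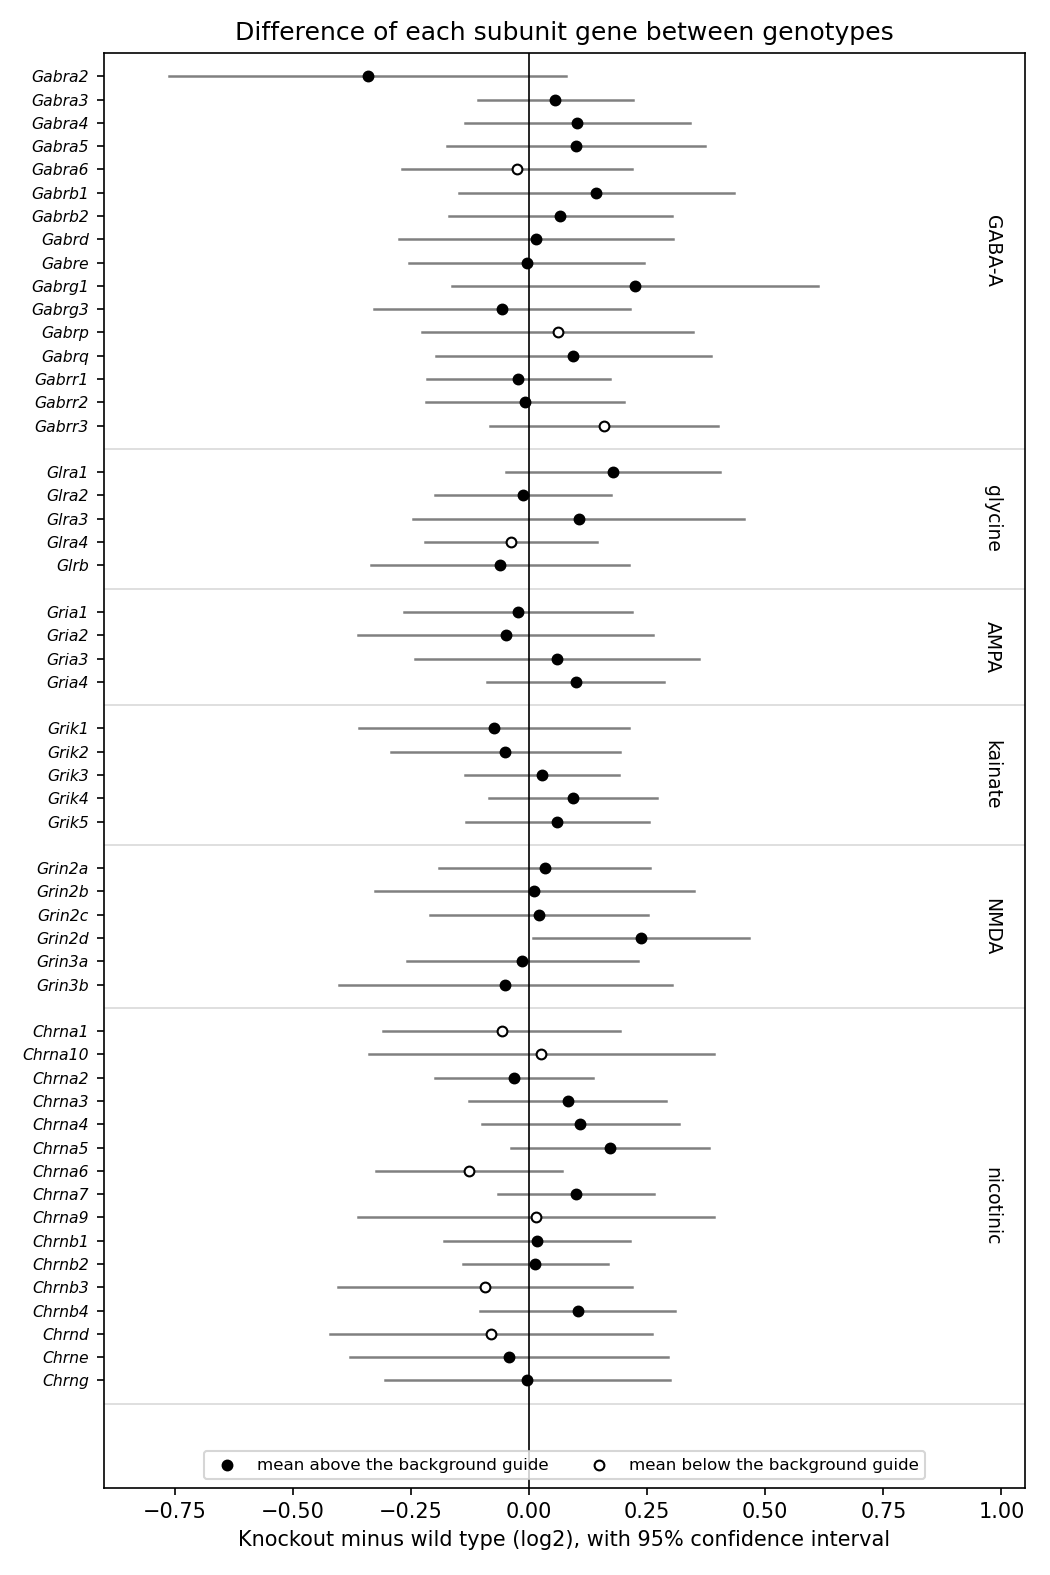
Difference between genotypes for each subunit gene, as knockout minus wild type in log2 units with the 95% confidence interval from limma, filled points for genes above the background guide and open points for genes below it. Only the interval of Grin2d, from 0.01 to 0.47, leaves out 0, and that of Gabra2 is the widest.

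Among GABA-A subunits the alpha subunits help form the GABA site, with Gabra2, Gabra3 and Gabra5 known as prominent in the embryonic nervous system. Gabra3 read 12.42, 12.33 and 12.32 in wild-type replicates 1 to 3 and 12.46, 12.42 and 12.36 in the knockout replicates. These 6 values span 0.13 log2 units, and the difference of 0.06 had an interval from -0.11 to 0.22. Gabra5, known for extrasynaptic receptors, was 11.31, 10.86 and 10.96 in wild type and 11.19, 11.15 and 11.09 in knockout. Wild-type replicate 1 was the highest of its group and the knockout values lay between the wild-type ones, so that the difference of 0.10 became 0.23 without that array and 0.009 without wild-type replicate 2.

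Gabra2 had the most negative difference of all subunits. It read 10.35, 10.12 and 10.18 in wild type, against 9.76, 10.32 and 9.54 in knockout. Knockout replicate 2 thus stood inside the wild-type range, while knockout replicates 1 and 3 stood below every wild-type array. This gave a difference of -0.34 (SE 0.18, interval from -0.76 to 0.08) and an unadjusted p of 0.0983 in limma. The low arrays are the same pair that carried Y-linked signal. A sex term in the fit, under which the genotype difference rests on knockout replicate 2, turned it to 0.08. It was -0.56 without knockout replicate 2 and -0.18 without knockout replicate 3.

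Gabra2 lies in a run of GABA-A genes on chromosome 5, in the order Gabrg1, Gabra2, Gabra4 and Gabrb1 with at most 1 other coding gene between neighbours. The other three did not share its pattern. Gabrg1, a gamma subunit reported in glia as well as neurons, was 8.78, 8.45 and 8.14 in wild type and 8.86, 8.72 and 8.47 in knockout, a difference of 0.22 with an interval from -0.16 to 0.61. It moved from 0.39 without wild-type replicate 1 to 0.07 without wild-type replicate 3. Gabra4 differed by 0.10 and Gabrb1, a beta subunit, by 0.14, both with overlapping groups. In Gabra4 and Gabrg1 knockout replicate 3 was the lowest knockout array, as in Gabra2, but knockout replicate 1 was the highest.

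**Figure D3:**
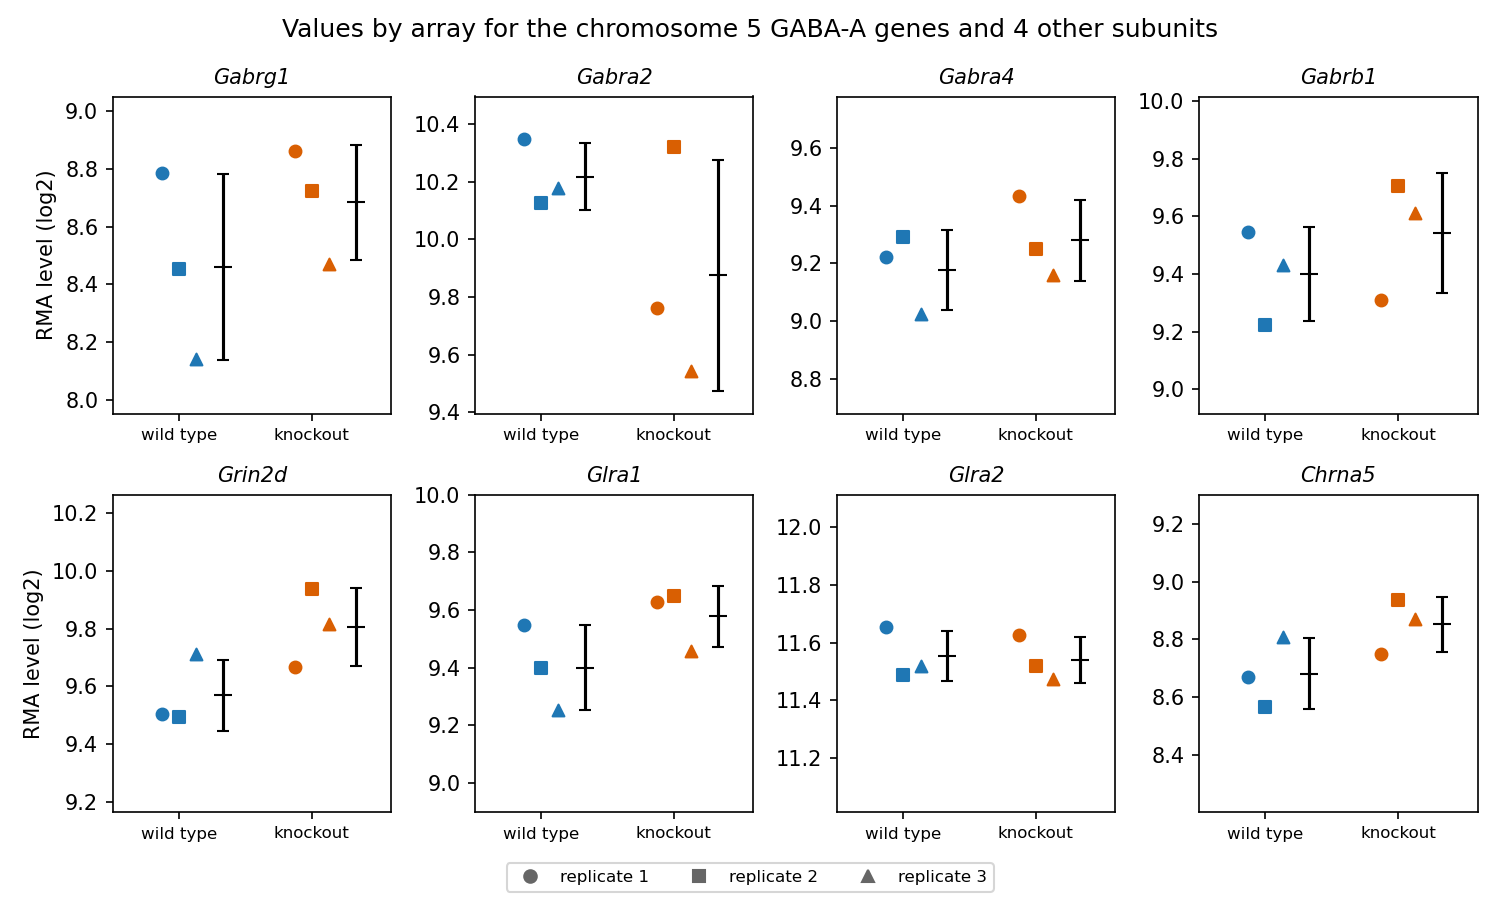
RMA level (log2) in each array for the 4 GABA-A genes of the chromosome 5 run and for Grin2d, Glra1, Glra2 and Chrna5, with symbols for replicate number and bars for mean and SD of 3 arrays; each panel spans the same 1.1 log2 units. In Gabra2 the square for knockout replicate 2 stands with wild type at 10.32 while the other knockout points are at 9.76 and 9.54.

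The remaining GABA-A subunits were close between genotypes. Gabrb2, a beta subunit of many synaptic receptors, differed by 0.07 in the row used and by 0.10 and 0.03 in its other rows. Gabrg3 (-0.06) and Gabra5 (0.10) neighbour each other on chromosome 7. Gabrq (0.09) and Gabre (-0.0046), the theta and epsilon subunits, flank Gabra3 on the X chromosome. Gabrd, the delta subunit of extrasynaptic receptors that is prominent in mature cerebellum and hippocampus, stood only slightly above the guide, at 6.59 ± 0.26 (wild type) and 6.61 ± 0.04 (knockout; SD, n = 3 each). The retina-associated rho subunits Gabrr1 and Gabrr2 were above the guide by 0.62 and 0.91 and differed by -0.02 and -0.0076. Gabrr3, Gabrp and Gabra6, the last a marker of cerebellar granule cells, had means below the guide.

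Glycine receptors carry much of the fast inhibition in the spinal cord. Glra2, the embryonic alpha subunit, was 11.65, 11.49 and 11.52 in wild type and 11.63, 11.52 and 11.47 in knockout. The groups coincided, with a difference of -0.01 and an interval from -0.20 to 0.17. Glra1, the alpha subunit of the adult cord, was also well above the guide at this age, reading 9.55, 9.40 and 9.25 in wild type and 9.63, 9.65 and 9.46 in knockout. Its difference was 0.18 with an interval from -0.05 to 0.40 and an unadjusted p of 0.108 in limma, and it was positive with each array left out (0.10 to 0.25). Knockout replicate 3 lay below wild-type replicate 1, so the groups overlapped.

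The log2 ratio of Glra1 to Glra2 within an array, looked at after the values were seen and given without a test, was -2.10, -2.09 and -2.27 in wild type and -2.00, -1.87 and -2.02 in knockout. All knockout ratios were above all wild-type ratios, by 0.19 on average (0.13 to 0.22 with an array left out). Such separation by itself keeps the sign when any array is left out. The share of other gene pairs that separate was not computed, so no shift between these subunits is drawn from it. The same ratio for the NMDA pair Grin2a to Grin2b was -2.47 ± 0.16 and -2.45 ± 0.11 (SD, n = 3 each), with overlap. Of 4 such ratios computed, the groups also overlapped for Grin2d to Grin2b, with a difference of 0.23 (0.02 to 0.38 with an array left out), and for Chrne to Chrng, with a difference of -0.04. Glrb, which anchors glycine receptors to the scaffold protein gephyrin, differed by -0.06. Glra3 stood at 6.55 and 6.65, near the guide, and Glra4 was below it.

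AMPA receptors mediate fast glutamate transmission. Gria2, whose edited transcript makes the channel impermeable to calcium, was 10.76, 10.48 and 10.18 in wild type and 10.44, 10.41 and 10.42 in knockout. The knockout arrays were nearly identical and lay inside a wild-type range of 0.58, with a difference of -0.05 and an interval from -0.36 to 0.26. Gria1 differed by -0.02, Gria3 by 0.06 and Gria4 by 0.10, and wild-type replicate 3 was the lowest wild-type array for Gria1, Gria2 and Gria3 alike. Gria2 and Glrb are direct neighbours on chromosome 3, and in both wild-type replicate 1 read highest and wild-type replicate 3 lowest of the wild-type arrays. That order was not particular to this pair, since subunits on other chromosomes held it too, among them Gria1, Gria3, Grik1 and Glra1.

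Kainate receptor genes differed in their spread between arrays, with a range over the 6 arrays from 0.10 for Grik3 to 0.47 for Grik1. Grik3, a low-affinity subunit on the chromosome that carries Tnc, was 11.22, 11.25 and 11.30 in wild type and 11.33, 11.22 and 11.31 in knockout, with an interval for the difference from -0.14 to 0.19. Grik5, the GluK5 subunit that works only in heteromers, was 11.29 ± 0.04 and 11.35 ± 0.12 (SD, n = 3 each). Grik2 differed by -0.05 and Grik1, which is typical of small sensory neurons in ganglia and of dorsal horn cells, by -0.07. Grik4 differed by 0.09. The 5 dorsal root ganglion markers measured of 8 listed had 2 above the guide, and the list's mean level ran from 7.06 to 7.14 in wild type and from 7.13 to 7.30 in knockout. Their part in Grik1 was not tested.

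NMDA receptors need glutamate together with glycine and admit calcium. Grin2d, the GluN2D subunit of embryonic and interneuron receptors, had the highest difference of all 52 subunits. Its values were 9.50, 9.49 and 9.71 in wild type and 9.67, 9.94 and 9.82 in knockout, and only wild-type replicate 3 and knockout replicate 1 overlapped. The knockout mean was higher by 0.24, or 118% of wild type (SE 0.10, interval from 0.01 to 0.47). Its unadjusted p in limma was 0.0434 and its adjusted p rounded to 1. It ran from 0.17 without knockout replicate 2 to 0.31 without wild-type replicate 3, and was 0.37 with the sex term. With 1 array left out, its unadjusted p was under 0.05 without wild-type replicate 3 or knockout replicate 1, and above it without any of the other four arrays. Grin2b, the embryonic partner, was 11.05, 10.52 and 10.53 in wild type and 10.61, 10.72 and 10.80 in knockout. Here wild-type replicate 1 alone stood high, and the difference of 0.01 was 0.19 without it. Grin2a, which increases after birth, was above the guide at 8.23 ± 0.16 and 8.26 ± 0.07 (SD, n = 3 each). Grin3a, a glycine-binding subunit of juvenile neurons, differed by -0.01, and Grin2c and Grin3b stood within 0.5 log2 units of the guide.

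Neuronal nicotinic receptors of the cord combine alpha3 or alpha4 with beta2 or beta4, and alpha7 forms homomers. Chrna4 was 12.13, 12.27 and 12.42 in wild type and 12.33, 12.42 and 12.41 in knockout. Wild-type replicate 1 was the lowest array, and the difference of 0.11 was 0.04 without it and 0.18 without wild-type replicate 3. Chrnb2, its usual partner, had the smallest range over the 6 arrays of all 52 subunits (0.07), with 11.30, 11.36 and 11.32 in wild type, 11.35, 11.33 and 11.34 in knockout and an interval from -0.14 to 0.17. Chrna7 was 9.14, 9.14 and 9.24 in wild type and 9.24, 9.33 and 9.26 in knockout. Wild-type replicate 3 and knockout replicate 1 met at 9.24, and the difference of 0.10 had an interval from -0.07 to 0.27.

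Chrna5, Chrna3 and Chrnb4 lie side by side on chromosome 9 and were each slightly higher in knockout, by 0.17, 0.08 and 0.10. Chrna5, an accessory subunit, read 8.67, 8.57 and 8.81 in wild type and 8.75, 8.94 and 8.87 in knockout. Knockout replicate 1 lay below wild-type replicate 3, so the groups overlapped, and the unadjusted p in limma was 0.0967. Its difference ranged from 0.11 to 0.23 with single arrays left out. Chrna2 stood slightly above the guide at 6.36 and 6.33. Chrna6 and Chrnb3, neighbours on chromosome 8 that form receptors of midbrain and visual neurons, were below the guide in every array, at means of 5.38 and 5.48. Chrna9 and Chrna10, known from cochlear hair cells, had means of 6.07 and 5.21.

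The muscle receptor is built from Chrna1, Chrnb1, Chrnd and, in the embryo, Chrng, which Chrne later replaces. Chrna1 was below the guide in all 6 arrays, at 5.60, 5.90 and 5.88 in wild type and 5.67, 5.66 and 5.88 in knockout. Chrnd also had a mean below the guide, and Chrnb1, Chrne and Chrng exceeded it by 0.26, 0.09 and 0.51. The 5 genes differed between genotypes by -0.08 to 0.02. Among 12 skeletal muscle markers, which test for carried-over muscle, 7 were above the guide. The list's mean level ran from 6.25 to 6.59 in wild type and from 6.41 to 6.53 in knockout, and its median difference was 0.0018. The muscle-specific receptor tyrosine kinase gene Musk was below the guide in every array, between 5.48 and 5.69.

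RefSeq sequences (GRCm38.p6) before the gene start were found for 40 of the 52 subunits, and 250 bases upstream of the start, taken from the first start listed, were searched. The following are shown because Chrna1 and Chrng belong to the muscle receptor, whereas Chrna4 is a neuronal subunit far above the guide. Capitals mark E-boxes, the motif CANNTG bound by myogenic and other helix-loop-helix factors, in the first 2 sequences, and CG dinucleotides in the third.
Chrna1, chr2:73580339-73580588, minus strand: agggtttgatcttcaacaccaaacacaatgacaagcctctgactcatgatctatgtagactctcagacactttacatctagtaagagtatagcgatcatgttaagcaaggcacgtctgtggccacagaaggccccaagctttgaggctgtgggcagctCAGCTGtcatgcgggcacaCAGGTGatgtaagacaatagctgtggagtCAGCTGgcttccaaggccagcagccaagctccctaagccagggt
Chrng, chr1:87205561-87205810, plus strand: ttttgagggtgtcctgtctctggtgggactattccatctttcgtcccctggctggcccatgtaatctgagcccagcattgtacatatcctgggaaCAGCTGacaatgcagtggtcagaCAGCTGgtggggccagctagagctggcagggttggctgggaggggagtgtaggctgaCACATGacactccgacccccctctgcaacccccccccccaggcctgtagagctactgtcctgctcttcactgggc
Chrna4, chr2:181039178-181039427, minus strand: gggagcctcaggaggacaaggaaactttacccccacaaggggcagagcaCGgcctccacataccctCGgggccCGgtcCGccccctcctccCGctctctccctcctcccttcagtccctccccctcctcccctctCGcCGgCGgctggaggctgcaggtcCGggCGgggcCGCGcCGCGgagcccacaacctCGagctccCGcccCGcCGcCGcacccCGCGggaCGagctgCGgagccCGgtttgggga
Chrna1 and Chrng each held 3 matches to CANNTG, 2 of them CAGCTG, and Chrna4 held 24 CG dinucleotides and no E-box. Both motifs read the same on either strand, and each CAGCTG is also counted as an E-box. The form CAGCTG occurred in 3 of the 4 muscle receptor genes with a sequence and in 12.2% of the 15563 genes with one, while any E-box occurred in 4 of 4 and in 61.8%. Over all 40 subunits with a sequence 7 held CAGCTG (17.5%), and those outside the muscle receptor were Gabrp, Glra3, Chrna9 and Chrnb4. A match is a string of letters and not a measured binding site.

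Detected subunits differed from undetected ones in CG content. The 7 subunits below the guide had 1 to 5 CG dinucleotides in these 250 bases, with a median of 3, and the 33 above it had 0 to 42, with a median of 10. Among all genes the medians were 2 and 15, so this split was shared by genes in general. Grik3 held 42 and Chrna7 held 25, while Gabra3, at 0, was detected without any.

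**Figure D4:**
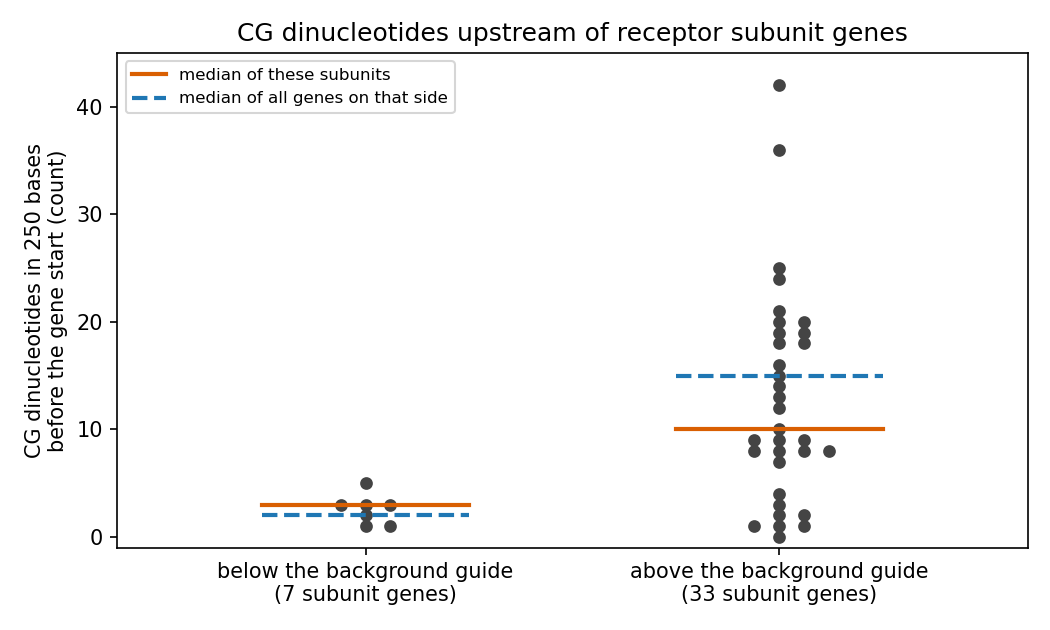
Number of CG dinucleotides in the 250 bases before the gene start for the 40 subunit genes with a RefSeq sequence, split by side of the background guide, each point a gene, with the subunits' median as a solid line and the median of all genes on that side as a dashed line. The 7 genes below the guide hold 1 to 5, and the 33 above it spread from 0 to 42.

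Arrays differed in a way that depended on level. For the 10 subunits below the guide, the median deviation from each gene's own mean was -0.18 in wild-type replicate 1 and 0.18 in wild-type replicate 3. Of these 10, 7 were lowest in wild-type replicate 1 and 8 highest in wild-type replicate 3. The 42 above the guide were mixed. Wild-type replicate 1 was the highest array for 15 and the lowest for 9, and wild-type replicate 3 the highest for 9 and the lowest for 13, at median deviations of 0.03 and -0.03. All genes below the guide showed deviations of -0.08 and 0.13 in the same arrays. The knockout arrays lay between, at -0.03, -0.07 and 0.09 for the subunits below the guide. This spread within wild type enters every difference given here.

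Chromosome was looked at for sex and for linkage to Tnc. The 6 X-linked subunits, Gabra3, Gabre, Gabrq, Glra2, Glra4 and Gria3, differed by -0.04 to 0.09. With the sex term, under which the genotype difference rests on knockout replicate 2, these differences ran from -0.08 for Glra4 to 0.20 for Gria3. The part of sex in them was not tested. The 5 on chromosome 4 with Tnc, Gabrd, Gabrr1, Gabrr2, Grik3 and Grin3a, differed by -0.02 to 0.03.

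The proteins that work with these receptors were read from lists of auxiliary subunits, scaffolds, nicotinic chaperones, chloride transporters, transmitter synthesis and transport genes, other transmitter-gated channels and metabotropic receptors. Of 72 measured genes, 46 were higher and 26 lower (63.9% higher, against 46.4% of all genes), with a median of 0.02. None passed limma's test after adjustment. Cacng3 and Grm4 were the 2 with an unadjusted p under 0.05 (2.78%, against 1.7% of all genes). The groups stood apart for 8 (11.1%, against 5.82% of all genes), 6 of them higher in knockout.

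Cacng3, an AMPA receptor auxiliary protein of the TARP family, was 10.76, 10.68 and 10.71 in wild type and 10.90, 11.00 and 10.93 in knockout. All knockout arrays were higher, by 0.23, with an unadjusted p of 0.0123 in limma. Cacng4, another TARP, went the other way by -0.11, with the groups apart. Slc12a5, the potassium-chloride cotransporter KCC2 that lowers neuronal chloride, was 10.40, 10.25 and 10.39 in wild type and 10.58, 10.46 and 10.49 in knockout, a difference of 0.17 that also separated the groups. Gad1 (0.14), which makes GABA, Slc32a1 (0.08), which loads GABA and glycine into vesicles, and Slc6a9 (0.16), the glycine transporter GlyT1, were apart in the same direction. Grm4, a presynaptic metabotropic glutamate receptor, differed by 0.29 and Musk by -0.09. None of these differences passed after adjustment. These 8 genes were named because their groups stood apart, which by itself keeps the sign when any 1 array is left out.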

How the data were processed

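Per the labels' protocols, total RNA was labelled with Ambion and Affymetrix whole-transcript kits, 1 array per sample. Per the submitters' processing notes the deposited log2 values come from RMA (no version given), which equalises signal distributions between arrays and compresses small differences. Rows were named through the platform annotation: 21789 of 35557 had 1 gene symbol, and symbols were updated by entrez identifier against RefSeq. Knockout and wild type were compared with limma 3.58.1 in R 4.3.3 (lmFit, eBayes, group only, two-sided), with Benjamini-Hochberg adjustment over 19938 genes and a threshold of 0.05. The fit was checked on simulated data. No dim genes were removed. Subunits, lists and naming rule (37 genes fixed by name less the 4 not analysed here, plus any with separated groups or an unadjusted p under 0.05; list genes with separated groups) were chosen with earlier results of these data known. Other subunits, markers and genes were named after their values were seen. Alternatives covered single arrays, sex, normalization, filters, weights and row choice. Whether replicate numbers pair the arrays was not settled. Correlations of same-numbered deviations were 0.345, -0.0746 and 0.449, and those of differently numbered ones ran from -0.470 to 0.283. The main fit used no pairing, and a fit with the replicate number as a block is given below.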

Additional observations from a re-analysis of the deposited data

How the results depend on the processing

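The count of subunits past an adjusted p of 0.05 was 0 under each alternative run, including a threshold of 0.1. Leaving out 1 array, the number with an unadjusted p under 0.05 ran from 0 to 4, the number with separated groups from 1 to 12 and the median difference from 0.0001 to 0.0459. With the replicate number as a replicate block, 3 subunits had an unadjusted p under 0.05 (Gabra2, Gabrg1 and Grin2d; 3.19% of all genes), and none passed after adjustment. That number was 0 with renewed quantile normalization (2.37% of all genes), with median centring (1.62%) and with all rows tested (1.16%), where Grin2d lost its place, and 13 with array weights (21.0% of all genes), whose fit did not fully converge and whose median difference was 0.0737. Renewed quantile normalization separated the groups for 2 subunits (6.49% of all genes). The count above the background guide stayed between 33 and 44, and was 42 with any array left out. Tnc was lower in knockout in each fit. Signal near background limits the 11 subunits close to the guide.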
